A study of Homo sapiens with 6 samples.

Results

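Signaling by the IL6 family was examined in SUM159 cells through 10 genes: the cytokines IL6 and LIF, the receptor chains IL6R, IL6ST, OSMR and LIFR, the transcription factor STAT3, its inhibitor SOCS3, and the C/EBP transcription factors CEBPB and CEBPD. They were chosen by name as the known upstream drivers of acute-phase genes, and all 10 of them are among the 18276 genes measured. Each is represented by 1 transcript cluster, the group of array probes that stands for a gene. SUM159 is an established cell line from a human breast cancer, which the study used as a model of the mesenchymal stem-like subtype of triple negative breast cancer. The 3 TβRIII-KD samples came from cells that stably carried a lentiviral short hairpin RNA against TGFBR3, the gene of the type III TGF-β receptor, and the 3 control samples from cells with a control vector. The hairpin cells were selected with puromycin. Both lines were grown in matrigel, a basement membrane gel, and the labels place RNA extraction at day 6. According to the study's text, a single hairpin was used after the first xenograft experiments, and the labels name no separate infections or clones within a group. The loss of TβRIII therefore cannot be told apart from any other difference between the hairpin and control cells. The sources used here do not say whether a group's 3 arrays represent separate cultures, and the p-values then rest on the spread of these samples alone, which could be technical.

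Cytokines of the IL6 family signal through receptor complexes that share gp130, the product of IL6ST. IL6 engages gp130 through IL6R, LIF through LIFR, and oncostatin M through either LIFR or OSMR. The complexes activate JAK kinases, which phosphorylate STAT3. STAT3 in turn induces SOCS3, which binds gp130 and shuts the signal off. In liver, IL6 and its relatives induce the plasma proteins of the acute phase through STAT3 and the C/EBP factors, and in breast cancer cells IL6 is known as an autocrine activator of STAT3.

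TGFBR3 was lower in TβRIII-KD, with log2 signals of 9.72, 10.01 and 10.16 in the TβRIII-KD arrays, against 10.81, 10.89 and 10.56 in the control arrays (log2 change, TβRIII-KD minus control, -0.79, SE 0.13, adjusted p = 0.0145 from limma). GAPDH, a glycolytic enzyme, had a log2 change of 0.00 (SE 0.07, adjusted p = 0.998). The array medians lay between 7.67 and 7.71. The third TβRIII-KD array stood apart from the others on the second principal component, which held 21.9% of the variance. Of 6 markers of mesenchymal breast cancer cells, 6 had mean signals above the median of all transcript clusters (7.695), with VIM at 13.03 and CD44 at 12.22. ESR1 and PGR, the hormone receptors that triple negative cells lack, had mean signals of 6.35 and 5.09, while ERBB2 lay above the median at 8.88. SPARC, a matrix protein among the mesenchymal markers, fell by 0.45 on the log2 scale (adjusted p = 0.0189), less than the study's fold limit of 0.5. Its adjusted p stayed under 0.05 in 2 of the 6 fits with 1 array left out. Of the 6 mesenchymal markers, 3 had positive and 3 negative log2 changes, with a median of 0.04. Of the 8 fibroblast and endothelial markers, 3 had positive and 5 negative log2 changes. The fibroblast marker FAP, with a mean signal of 5.84, had a log2 change of -0.68 (adjusted p = 0.0534), and PDGFRA one of -0.40 (adjusted p = 0.0738). Of 11 leukocyte markers, 8 hepatocyte markers and 8 fibroblast and endothelial markers, 0 passed the cutoff in limma, and 0, 0 and 2 had an unadjusted p under 0.05. Over all genes the shares were 2.33% and 15.6%. The summed log2 signal of the leukocyte markers was 70.5 to 70.6 in TβRIII-KD arrays and 69.6 to 70.3 in control arrays, that of the hepatocyte markers 41.4 to 42.7 in TβRIII-KD and 41.0 to 41.5 in controls, and that of the fibroblast and endothelial markers 52.8 to 54.1 in TβRIII-KD and 54.5 to 55.0 in controls. The mean signals of the defining markers PTPRC and ALB were 4.33 and 4.27. The lowest mean signal over all genes was 2.17, so no marker could stand at 0, and absence was not read from these signals. Other markers of these lists were bright, among them the leukocyte marker CD68, with a mean signal of 10.14, and the fibroblast markers PDGFRA and DCN, with 10.73 and 9.61. Their part in the results below was not tested.

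Of the 10 genes, 9 had a lower mean signal in TβRIII-KD than in control cultures, and LIF had a higher one. OSMR and STAT3 fell at an adjusted p under 0.05, and both fell by less than 0.5 on the log2 scale. IL6 had the largest difference of the 10, at -0.58, and did not pass the test (adjusted p = 0.0591). The study itself used limma for its array comparison. Its cutoff was an adjusted p under 0.05 together with an absolute log2 change over 0.5. In limma this cutoff was passed by 0 of the 10 genes, where 2.33% of all genes measured passed it. An adjusted p under 0.05 without the fold limit was reached by 2 of the 10, both lower, where 3.48% of all genes reached it (2.22% lower and 1.26% higher). An unadjusted p under 0.05 in limma was reached by 6 of the 10 (15.6% of all genes), and by 7 of them in the methods' t-test (13.8% of all genes), of which 0 were left after adjustment (0.115% of all genes). The arrays of TβRIII-KD and control did not overlap for 7 of the 10, 6 lower and 1 higher, where 21.3% of all genes did not overlap. For these 7 the exact permutation test gave p = 0.1 (two-sided), which is the lowest value possible with 3 arrays per group. The median log2 change was -0.29 over the 10 genes and 0.01 over all genes. The number at an adjusted p under 0.05 was 2 without TβRIII-KD 3, then OSMR and LIFR, and 0 when any other array was left out.

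**Figure D1:**
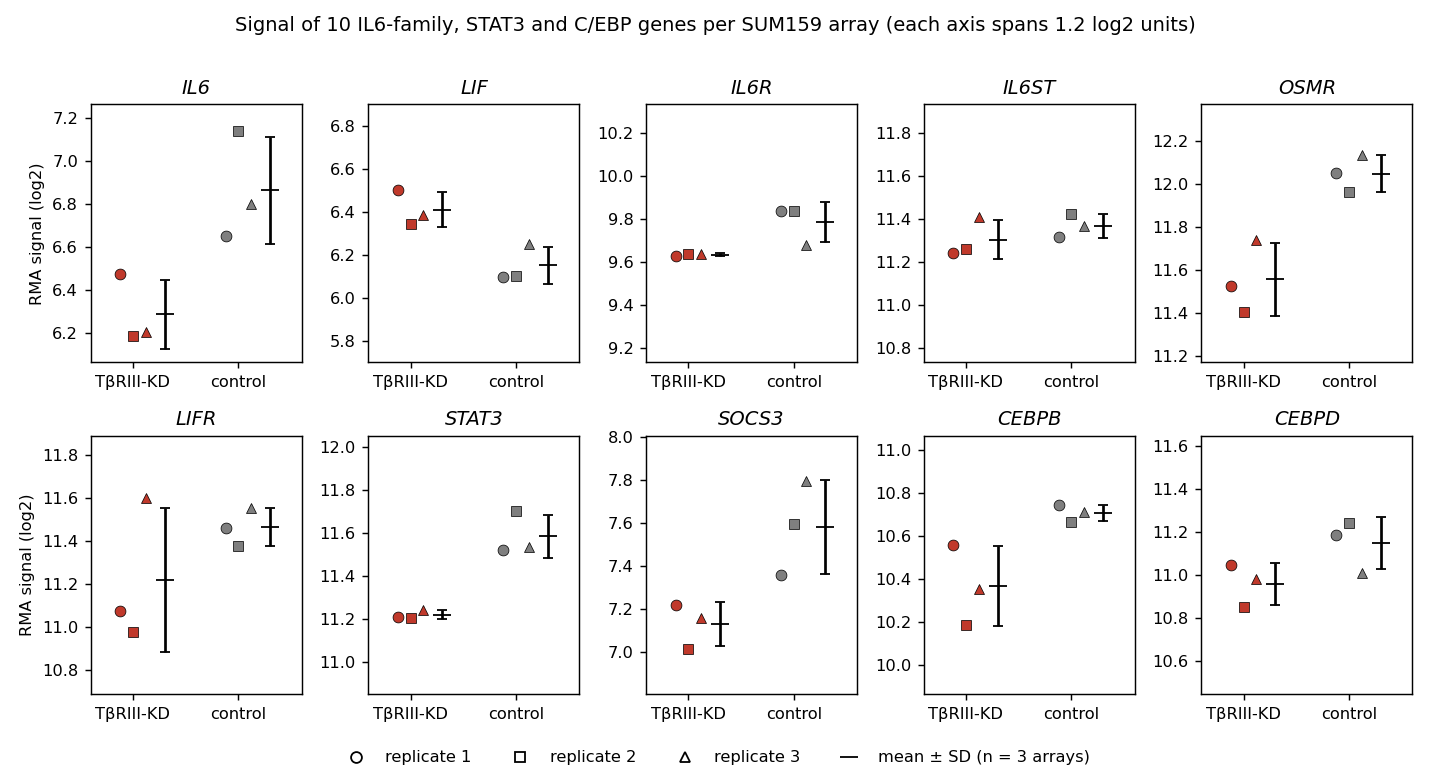
RMA signal (log2) of the 10 genes on each SUM159 array, with TβRIII-KD in red left of control in grey, the replicate number as the symbol and a bar at the side for mean ± SD (n = 3); every axis spans the same number of log2 units. The groups are separate for IL6, IL6R, OSMR, STAT3, SOCS3 and CEBPB, with TβRIII-KD lower, and for LIF, with TβRIII-KD higher, while IL6ST, LIFR and CEBPD overlap.

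The 250 bases before the RefSeq start (GRCh38.p14) are given for the 2 genes that passed the test, OSMR and STAT3, and for IL6, which had the largest difference. This choice was made after the values were seen. Windows were searched on both strands for 4 motifs, the STAT element TTCNNNGAA, the C/EBP element TTGCNNAA, the NF-κB element and the AP-1 element TGANTCA, and matches are in capitals. No matches overlap in these windows. The OSMR window is chr5:38845762-38846011 on the plus strand, the STAT3 window chr17:42388443-42388692 on the minus strand and the IL6 window chr7:22726950-22727199 on the plus strand, each written 5′ to 3′ along its gene.
OSMR: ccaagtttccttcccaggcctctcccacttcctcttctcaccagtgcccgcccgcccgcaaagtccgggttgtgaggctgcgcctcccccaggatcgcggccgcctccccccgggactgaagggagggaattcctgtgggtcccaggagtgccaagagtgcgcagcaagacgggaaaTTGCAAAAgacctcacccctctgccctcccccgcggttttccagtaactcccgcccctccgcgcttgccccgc
STAT3: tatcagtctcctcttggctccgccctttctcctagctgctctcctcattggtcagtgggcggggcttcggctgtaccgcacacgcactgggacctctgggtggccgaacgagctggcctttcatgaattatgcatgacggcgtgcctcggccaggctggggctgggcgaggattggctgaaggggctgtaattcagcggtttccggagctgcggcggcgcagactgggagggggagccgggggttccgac
IL6: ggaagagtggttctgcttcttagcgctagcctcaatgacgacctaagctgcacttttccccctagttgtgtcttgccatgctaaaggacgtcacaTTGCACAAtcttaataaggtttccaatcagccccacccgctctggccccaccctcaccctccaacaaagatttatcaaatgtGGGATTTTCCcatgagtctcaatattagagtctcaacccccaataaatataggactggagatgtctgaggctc
The OSMR window held 1 C/EBP match, TTGCAAAA, 73 to 66 bases before the start. The IL6 window held a C/EBP match, TTGCACAA, 155 to 148 bases before the start and an NF-κB match, GGGATTTTCC, 73 to 64 bases before it. The STAT3 window held none of the 4 motifs. Of 35116 RefSeq windows of this length, 9.05% held the C/EBP element, 0.527% the NF-κB element, 6.57% the STAT element and 6.57% the AP-1 element. RefSeq windows were matched for 8 of the 10 genes, with 12 windows in all since several genes have more than 1 start, and 3 of the 12 held the C/EBP element, 2 the STAT element, 1 the NF-κB element and 0 the AP-1 element. Both STAT matches lay in windows of LIFR. A match is a description of the letters in the window, and binding was not measured in these data.

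The 2 ligands lay on opposite sides of 0, and neither passed the test. IL6, the founding cytokine of the family, had log2 signals of 6.47, 6.19 and 6.20 in the TβRIII-KD arrays and 6.65, 7.14 and 6.80 in the control arrays. All TβRIII-KD arrays lay below all control arrays, and control 2 was the highest of the 6. The mean was 6.29 ± 0.16 in TβRIII-KD and 6.86 ± 0.25 in controls (SD, n = 3 each), a log2 change of -0.58 (SE 0.13, 95% confidence interval -0.88 to -0.27, adjusted p = 0.0591), or 0.671 times the control signal. The intervals given here are limma's for a gene on its own and are not adjusted for the number of genes. Without control 2 the log2 change of IL6 was -0.44 (adjusted p = 0.134). LIF, which maintains pluripotency of mouse embryonic stem cells and signals through LIFR and gp130, had log2 signals of 6.50, 6.34 and 6.38 in TβRIII-KD arrays and 6.10, 6.10 and 6.25 in control arrays. Its TβRIII-KD arrays all lay above the control arrays, the reverse of IL6. Its log2 change was 0.26 (SE 0.08, 95% confidence interval 0.08 to 0.44, adjusted p = 0.147), which did not pass the test. The mean signals of IL6 (6.58) and LIF (6.28) lay below the median of all transcript clusters, at percentiles 28.5 and 23.3. Signals of different transcript clusters depend on their probes and are not compared here as amounts of RNA. In these bulk samples, fewer cells that express a gene and less RNA of it per cell cannot be told apart.

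Of the 4 receptor chains, OSMR was lower in TβRIII-KD. OSMR, which pairs with gp130 as a receptor of oncostatin M and with IL31RA as the receptor of IL31, had log2 signals of 11.53, 11.41 and 11.74 in the TβRIII-KD arrays and 12.05, 11.96 and 12.14 in the control arrays. The groups did not overlap, and TβRIII-KD 3 lay nearest to the controls. The mean was 11.56 ± 0.17 in TβRIII-KD and 12.05 ± 0.09 in controls (SD, n = 3 each), a log2 change of -0.49 (SE 0.10, adjusted p = 0.0352), or 0.711 times the control signal. Without TβRIII-KD 3 it was -0.58 (adjusted p = 0.0112). Its adjusted p was 0.0920 without TβRIII-KD 1, 0.113 without TβRIII-KD 2, 0.136 without control 1, 0.0680 without control 2 and 0.136 without control 3.

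LIFR, the receptor chain for LIF and a neighbour of OSMR on chromosome 5 in RefSeq order, had log2 signals of 11.08, 10.98 and 11.60 in TβRIII-KD arrays and 11.46, 11.38 and 11.56 in control arrays. TβRIII-KD 3 was the highest of all 6 arrays, and the other TβRIII-KD arrays lay below all controls. The log2 change was -0.25 (SE 0.15, 95% confidence interval -0.59 to 0.10, adjusted p = 0.508), and without TβRIII-KD 3 it was -0.44 (adjusted p = 0.0343). LIFR had the widest range within TβRIII-KD of the 10 genes (0.62, against 0.18 within controls). For OSMR as for LIFR, replicate 3 was the highest and replicate 2 the lowest array of each group. RICTOR, the gene on the other side of OSMR, had a log2 change of 0.24 (SE 0.08, adjusted p = 0.198), and EGFLAM, beyond LIFR, one of 0.10 (SE 0.08, adjusted p = 0.625).

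The receptor chains of IL6 itself did not pass the test. IL6ST, which encodes gp130, had log2 signals of 11.24, 11.26 and 11.41 in TβRIII-KD arrays and 11.31, 11.43 and 11.37 in control arrays, which overlap. Its log2 change was -0.06 (SE 0.08, 95% confidence interval -0.24 to 0.11, adjusted p = 0.763). IL6R, which encodes the chain that binds IL6, had log2 signals of 9.62, 9.64 and 9.63 in TβRIII-KD arrays and 9.84, 9.84 and 9.68 in control arrays. The TβRIII-KD arrays lay close together and below all controls, with control 3 nearest to them. Its log2 change was -0.15 (SE 0.07, 95% confidence interval -0.32 to 0.02, adjusted p = 0.394).

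**Figure D2:**
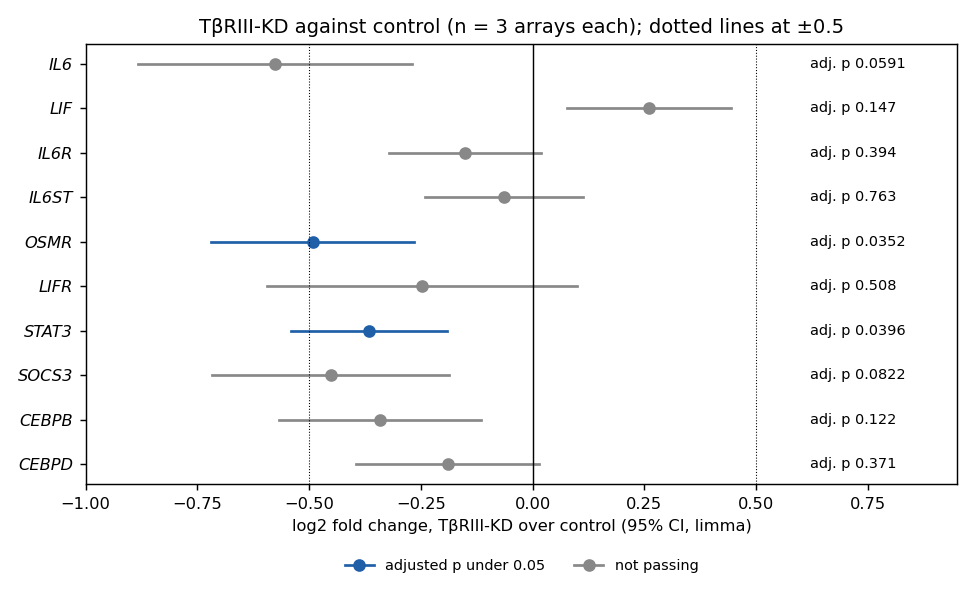
Log2 change of TβRIII-KD over control for the 10 genes, with a line through each dot spanning limma's 95% confidence interval (n = 3 each), the adjusted p at the right and dotted lines at the fold limit of 0.5. OSMR (-0.49) and STAT3 (-0.37), in blue, passed an adjusted p under 0.05, and LIF (0.26) alone lies above 0.

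STAT3, the factor that carries the signal from gp130 to the nucleus, was lower in TβRIII-KD. Its log2 signals were 11.21, 11.20 and 11.24 in the TβRIII-KD arrays and 11.52, 11.70 and 11.54 in the control arrays. The TβRIII-KD arrays spanned 0.04, against 0.18 in controls, and lay below all controls, with control 2 the highest. The mean was 11.22 ± 0.02 in TβRIII-KD and 11.58 ± 0.10 in controls (SD, n = 3 each), a log2 change of -0.37 (SE 0.08, 95% confidence interval -0.54 to -0.19, adjusted p = 0.0396), or 0.776 times the control signal. When any 1 array was left out, the log2 change lay between -0.40 (without control 1) and -0.31 (without control 2) and the adjusted p between 0.0591 (without TβRIII-KD 3) and 0.134 (without control 2), with 0.0940 without TβRIII-KD 1 and 0.118 without TβRIII-KD 2. Leaving out control 1 or control 3 gave an adjusted p of 0.106 each. SOCS3, the feedback inhibitor that STAT3 induces, had log2 signals of 7.22, 7.02 and 7.16 in TβRIII-KD arrays and 7.36, 7.60 and 7.80 in control arrays. The groups did not overlap, and the controls spanned 0.44, against 0.20 in TβRIII-KD. The log2 change of SOCS3 was -0.45 (SE 0.12, 95% confidence interval -0.72 to -0.19, adjusted p = 0.0822), which did not pass the test.

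**Figure D3:**
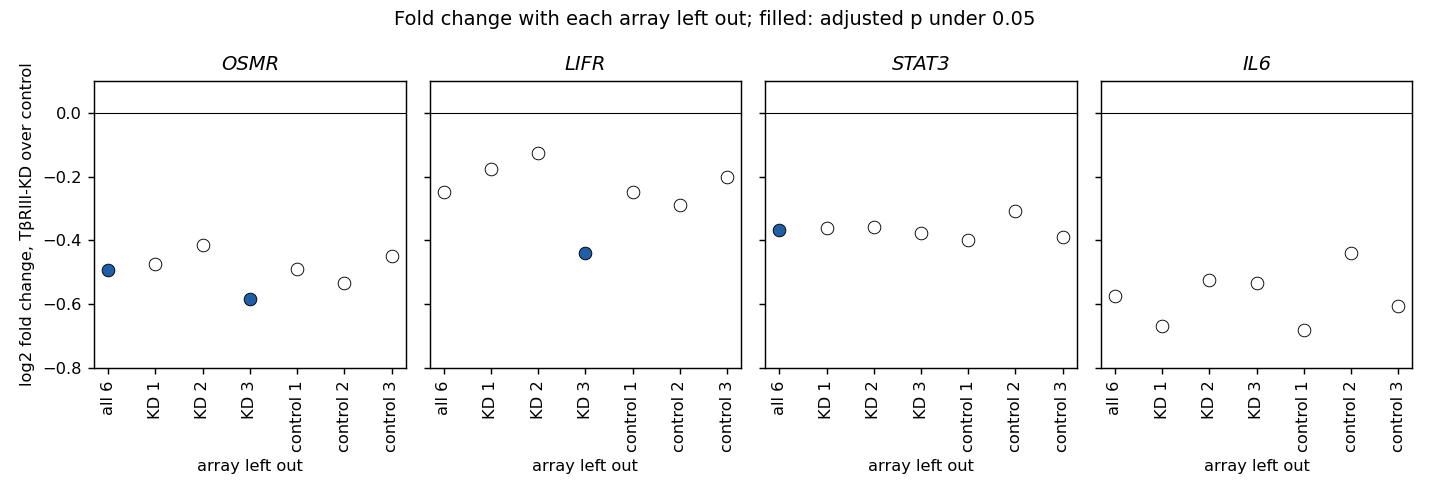
Log2 change of TβRIII-KD over control for OSMR, LIFR, STAT3 and IL6 with all 6 arrays and with each array left out in turn; filled symbols mark an adjusted p under 0.05 from limma. With TβRIII-KD 3 left out, OSMR lies at -0.58 and LIFR at -0.44, both filled, while STAT3 is filled only with all 6 arrays.

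The C/EBP factors did not pass the test. CEBPB, first described as a nuclear factor for IL6 expression, had log2 signals of 10.56, 10.18 and 10.35 in TβRIII-KD arrays and 10.74, 10.67 and 10.71 in control arrays. The groups did not overlap, and the TβRIII-KD arrays were the more spread, over 0.37, against 0.08 in controls. Its log2 change was -0.34 (SE 0.10, 95% confidence interval -0.57 to -0.12, adjusted p = 0.122). CEBPD, which acute-phase signals induce through STAT3, had log2 signals of 11.05, 10.85 and 10.98 in TβRIII-KD arrays and 11.19, 11.24 and 11.01 in control arrays. Here control 3 lay below TβRIII-KD 1, so the groups overlap. Its log2 change was -0.19 (SE 0.09, 95% confidence interval -0.39 to 0.02, adjusted p = 0.371).

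Beyond these 10 genes, 117 genes of 9 lists were measured around the same pathway, of which 1 rose and 16 fell at the cutoff of the study (background 0.772% higher and 1.55% lower). This background applies to the count of each list below. An unadjusted p under 0.05 was reached by 15.6% of all genes. Among 6 other ligands of the family, 0 passed the cutoff in limma and 2 had an unadjusted p under 0.05. EBI3, a subunit of IL27 and IL35, had the smallest p of them, with a log2 change of -0.21 (SE 0.08, adjusted p = 0.274). Oncostatin M itself (OSM) had a log2 change of 0.01 (adjusted p = 0.962). Among 6 other receptor chains and sheddases, IL31RA rose and 0 fell. IL31RA, the partner of OSMR in the receptor of IL31 and the gene next to IL6ST in RefSeq order, had log2 signals of 8.17, 7.34 and 7.24 in TβRIII-KD arrays and 6.26, 6.53 and 5.86 in control arrays. The groups did not overlap, and TβRIII-KD 1 was the highest. Its log2 change of 1.37 (SE 0.25, adjusted p = 0.0241), or 2.58-fold, had the opposite sign to that of OSMR, its partner. The mean signal of IL31RA, 6.90, lies below the median of all transcript clusters. IL31RA was therefore not tested when clusters below the median were left out. Leaving out TβRIII-KD 2 gave an adjusted p of 0.0704, leaving out control 1 one of 0.0941 and leaving out control 3 one of 0.0825. IL31, the ligand of this pair, had a log2 change of 0.25 (adjusted p = 0.313). ADAM17, a protease that sheds IL6R from the cell surface, had a log2 change of -0.29 (SE 0.08, adjusted p = 0.0866).

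Of 8 other JAK and STAT genes, 0 passed the cutoff in limma, and 1 had an unadjusted p under 0.05. JAK3, the kinase of the common gamma chain receptors of lymphocytes, had an adjusted p under 0.05 with a difference below the fold limit. Its log2 signals were 6.12, 6.12 and 6.10 in TβRIII-KD arrays and 6.49, 6.49 and 6.55 in control arrays, a log2 change of -0.40 (SE 0.07, adjusted p = 0.0155). These signals lie below the median of all transcript clusters. Its adjusted p was 0.0510 without TβRIII-KD 2, 0.0776 without control 1, 0.0556 without control 2 and 0.0832 without control 3. JAK1, which gp130 receptors depend on most, had a log2 change of 0.08 (adjusted p = 0.686), and STAT5B and STAT5A, the neighbours of STAT3 on chromosome 17, had log2 changes of -0.19 (adjusted p = 0.454) and -0.10 (adjusted p = 0.682).

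Among 16 inhibitors of JAK-STAT signaling, 0 rose and 2 fell at the cutoff, both of the SOCS family to which SOCS3 belongs. CISH, which STAT5 induces, had log2 signals of 7.72, 7.71 and 7.63 in TβRIII-KD arrays and 8.35, 8.21 and 8.38 in control arrays, a log2 change of -0.62 (SE 0.08, adjusted p = 0.00397). SOCS1, which inhibits JAK kinases directly, had 7.98, 7.93 and 8.05 in TβRIII-KD arrays and 8.55, 8.45 and 8.68 in control arrays, a log2 change of -0.57 (SE 0.08, adjusted p = 0.00858). For both genes the groups were wide apart relative to their spread, and both remained at an adjusted p under 0.05 without any 1 array. The other family members SOCS2, SOCS4, SOCS5, SOCS6 and SOCS7 had log2 changes of -0.05, 0.08, 0.04, 0.00 and 0.04, and 0 of these 5 had an unadjusted p under 0.05. PIAS1, a SUMO ligase that restrains STAT factors, had a log2 change of -0.30 (SE 0.07, adjusted p = 0.0516). The list as a whole had a median of 0.00.

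Of 8 other C/EBP genes and partners, 0 passed the cutoff in limma and 1 had an unadjusted p under 0.05. This was TRIB1, a pseudokinase that promotes degradation of C/EBP proteins, with a log2 change of -0.27 (SE 0.11, adjusted p = 0.292). CEBPA, CEBPE and CEBPG had log2 changes of 0.06, 0.06 and 0.14.

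Of 27 genes known as targets of STAT3, 0 rose and 2 fell at the cutoff (background 0.772% higher and 1.55% lower). Their median log2 change was -0.18. MUC1, a membrane mucin, had log2 signals of 8.14, 8.13 and 8.37 in TβRIII-KD arrays and between 8.96 and 9.22 in control arrays, a log2 change of -0.85 (SE 0.10, adjusted p = 0.00338). NNMT, an enzyme that methylates nicotinamide, had 10.57, 10.39 and 10.62 in TβRIII-KD arrays and 11.16, 11.14 and 11.29 in control arrays, a log2 change of -0.67 (SE 0.09, adjusted p = 0.00514). Both are also controlled by other factors, and both remained at an adjusted p under 0.05 without any 1 array. Without TβRIII-KD 3 the count of STAT3 targets past the cutoff was 5. BIRC5 was higher (log2 change 0.62, adjusted p = 0.0202). The 4 lower were VEGFA (-0.97, adjusted p = 0.0174), BCL6 (-0.72, adjusted p = 0.0199), MUC1 and NNMT. In that setting 546 of all genes passed the cutoff, against 425 with all 6 arrays. With any other array left out the count of targets stayed at 2, MUC1 and NNMT. With all 6 arrays the other targets did not pass the test, among them VEGFA (-0.81, adjusted p = 0.0533), BCL6 (-0.57, adjusted p = 0.0986) and BCL3 (-0.34, adjusted p = 0.0699), with MYC at -0.11, MCL1 at -0.02 and the survivin gene BIRC5, which lies next to SOCS3, at 0.44 (adjusted p = 0.226). In all, 12 of the 27 had an unadjusted p under 0.05 (15.6% of all genes). The arrays of 9 were lower without overlap in TβRIII-KD and those of 2 higher (background 11% lower and 10.2% higher).

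Other inducers of acute-phase genes were set beside the IL6 family. Of 14 genes of the IL1 family and its signaling, 0 rose and 2 fell, both receptor genes that lie on chromosome 2. IL1R2, a decoy receptor that binds IL1 without signaling, had log2 signals of 8.34, 7.84 and 8.88 in TβRIII-KD arrays and 10.28, 9.79 and 10.42 in control arrays, a log2 change of -1.81 (SE 0.25, adjusted p = 0.00731). IL1RL1, the receptor of IL33, had 8.37, 7.49 and 8.78 in TβRIII-KD arrays and 9.99, 9.70 and 10.31 in control arrays, a log2 change of -1.78 (SE 0.29, adjusted p = 0.0148). For both, TβRIII-KD 2 was the lowest array and the groups did not overlap. The adjusted p of IL1RL1 was 0.0707 without control 1 and 0.0570 without control 3. The signaling receptor IL1R1 had a log2 change of -0.23 (adjusted p = 0.248), and the cytokines IL1A and IL1B had log2 changes of -0.38 (adjusted p = 0.156) and -0.18 (adjusted p = 0.355). Of 11 glucocorticoid receptor and target genes, which are of interest because hydrocortisone is part of the culture medium of these cells, 1 fell and 0 rose. This was ERRFI1, an inhibitor of the EGF receptor, with a log2 change of -0.61 (SE 0.11, adjusted p = 0.0240). Its adjusted p became 0.0830 when TβRIII-KD 2 was left out, 0.112 for control 1 and 0.0792 for control 3. By comparison, the receptor gene NR3C1 had -0.12 and TSC22D3 -0.05.

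The acute-phase genes that these factors drive in liver included genes with larger changes than any of the 10, a comparison that was not tested. Of 21 measured, 9 fell at the cutoff and 0 rose (background 1.55% lower and 0.772% higher). The median log2 change was -0.43, against -0.29 for the 10 signaling genes. With transcript clusters below the median signal left out, 5 fell, but 14 of the 21 lie below it and were not tested there. In that run 280 of 9164 genes passed the cutoff in either direction. ORM1 (log2 change -3.17), HP (-2.43), SAA2 (-2.15) and SAA1 (-1.98) had the largest falls of the list, and their pairs ORM1 with ORM2 and SAA1 with SAA2 are near-identical genes whose probes may not separate them. The fibrinogen genes FGA, FGB and FGG, which IL6 induces in liver, had log2 changes of 0.10, -0.07 and 0.15, with mean signals between 4.05 and 4.78. The size of a fall in an acute-phase gene was not tested against the change in any of the 10 genes, since all come from the same 6 arrays.

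**Figure D4:**
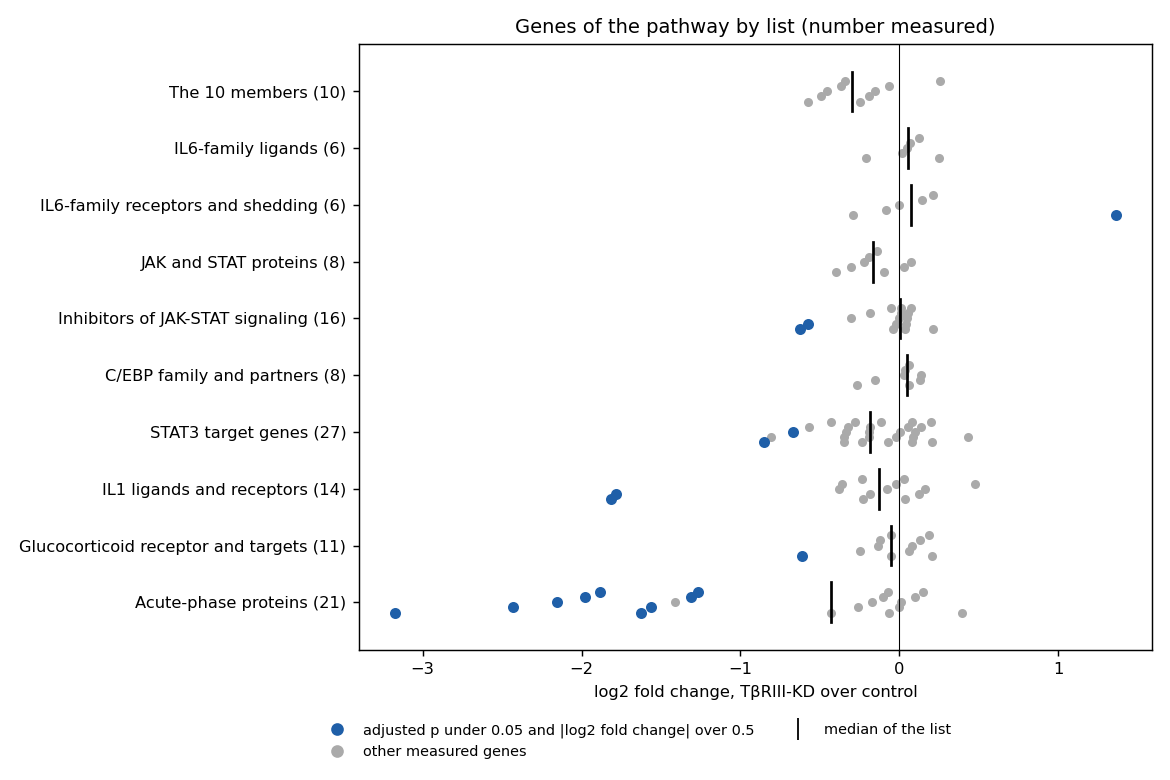
Log2 change (TβRIII-KD minus control) of the measured genes, by list, with blue dots for genes past the cutoff (adjusted p under 0.05 and absolute log2 change over 0.5), grey dots for the others and a black bar at the median of each list. The 10 genes lie between -0.58 and 0.26 with 0 past the cutoff, IL31RA stands at 1.37, and the 9 acute-phase genes past the cutoff lie between -3.17 and -1.27.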

How the data were processed

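RNA of 6 SUM159 samples was measured on Affymetrix Human Gene 1.0 ST arrays, scanned with AGCC. The deposited values are on a log2 scale. The authors obtained them by RMA (oligo, R 3.0.1), which corrects background, equalizes the arrays' distributions by quantiles and summarizes probes by median polish. RMA pulls low signals together, so differences of dim genes are understated. The filter behind the 22148 transcript clusters is not given in the sources used here. Of these, 19129 carry 1 gene symbol, 1735 several and 1284 none, and 417 repeat the values of an earlier one. Symbols and gene order follow RefSeq (GRCh38.p14), and the probes' own genome build is not given in the sources used here. With several clusters, the one with the highest mean over 6 arrays was used. Signal over background was not used here, and precision is limited by the number of arrays.

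The comparison, TβRIII-KD minus control, used limma 3.58.1 under R 4.3.3 (moderation without trend, two-sided), p-values adjusted by Benjamini-Hochberg across every transcript cluster. No array was left out or paired in it. According to its methods, the study also used limma for the arrays. The other test of its methods, given in a general section for all data, served here only as an alternative. The procedure was tested on data simulated with the spread of these arrays. At the cutoff it recovered 42.8% of log2 changes of 0.5, which sit at the fold limit itself, and 97.9% of changes of 0.75. Of the calls, 3.47% were false. Changes smaller than 0.5 were not simulated.

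The 10 genes, the lists and the cutoff were chosen with earlier results of these data known, so the counts are descriptions. Named are the 10 genes, TGFBR3, GAPDH and, per list, up to 4 genes past the cutoff or else the gene with the smallest p. Other genes, and the promoters shown, were picked with their values in view. The likeness search planned for genes past the cutoff named none. Alternatives were trend, robust moderation, array weights, the methods' t-test, a filter on dim clusters, clusters with 1 symbol, centred arrays, a second quantile normalization, leaving out each array, a replicate block, averaging a gene's clusters and other fold limits.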

Additional observations from a re-analysis of the deposited data

How the results depend on the processing

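The number of the 10 genes past the cutoff was 0, and it was 1 with array weights (OSMR), 2 without the fold limit (OSMR and STAT3) and 0 to 1 when 1 array was left out (OSMR without TβRIII-KD 3). The number at an adjusted p under 0.05, a count added after seeing the data, was 2, and it was 0 in the methods' t-test, 1 with a replicate block and 0 to 2 when 1 array was left out. The number of other pathway genes past the cutoff was 17, and it was 0 in the methods' t-test, where 21 of all genes measured had an adjusted p under 0.05, and 14 to 21 when 1 array was left out.

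The replicate numbers were not taken to pair the samples. Deviations from the group means of same-numbered arrays correlated at -0.06, 0.11 and 0.31 (numbers 1, 2 and 3), and TβRIII-KD 1 correlated best with control 2 (0.34). Over all genes, 425 passed the cutoff, and 14 did in the methods' t-test and 280 with dim clusters removed (9164 genes tested). Leaving out 1 array gave 258 (control 1) to 546 (TβRIII-KD 3), with 268 without TβRIII-KD 2. With the replicate block 520 genes passed the cutoff, the adjusted p of STAT3 was 0.0546, and 4 STAT3 targets fell past the cutoff in place of 2 (MUC1, NNMT, VEGFA and BCL6).

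Of the 32 genes named by rule, set against the alternatives in 501 comparisons, 448 stayed on the same side of an adjusted p of 0.05, 47 lost it and 6 gained it, and 0 turned in sign with a passed test. Of the 47 losses, 16 were in the methods' t-test and 1 with the replicate block, and the others with an array left out. IL6, SOCS3 and CEBPB stayed at an adjusted p over 0.05 in every alternative run for them, with lowest values of 0.0520, 0.0591 and 0.0514. IL6, LIF and SOCS3 have mean signals below the median of all transcript clusters and were not tested in the filter on dim clusters. Signal over background was not used here, so how far it limits these dim genes was not tested.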
